A study of Homo sapiens with 12 samples.

Results

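The mRNAs of the autophagy machinery were followed through a YTHDF2 immunoprecipitation experiment in U251-MG cells, a human astrocytoma line that the labels list as astrocytes. The set holds 37 genes of the 36963 in the deposited gene table, found by gene symbol. YTHDF2 is a protein that reads N6-methyladenosine in mRNA and is known for speeding the decay of the mRNAs it binds, and the experiment asked which mRNAs came down with it and whether manganese altered that. There were 4 groups with 3 libraries each: YTHDF2 IP and input from cells given 100 µM manganese, and YTHDF2 IP and input from control cells kept in the same low-serum medium with no added manganese. The input was a small part of the cleared lysate, purified for poly(A) RNA, and the IP was the RNA brought down from the rest with a YTHDF2 antibody. All 12 libraries come from 1 cell line with no genetic change named. No IP with a control antibody and no length of exposure is labelled. Nor do the labels say whether replicates were separate cultures, so a p-value here speaks of library-to-library spread, which may be technical.

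Autophagy encloses cytoplasm in a double membrane and delivers it to the lysosome. The ULK kinase complex starts the process, a class III phosphatidylinositol 3-kinase complex marks the membrane with phosphatidylinositol 3-phosphate, and lipid transfer and scramblase proteins feed the growing membrane. A pair of ubiquitin-like conjugation systems then attaches ATG8-family proteins, the LC3 and GABARAP proteins, to it, cargo receptors bind those proteins, and the transcription factors TFEB and TFE3 drive many of the genes involved. In astrocytes and glioma cells the pathway serves protein and organelle turnover and responds to metal and nutrient stress.

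Estimated gene counts ran from 16683984 to 28425552 per library. PCGF6 alone held 34.3% to 41.8% of counts and 66.8% to 77.9% of TPM in a library, so all levels below share what was left. Alignment was 56.88% in control IP 3, with 83.7% to 87.12% elsewhere. Among astrocyte markers VIM and SOX9 were at 2060 and 146 CPM or more in every library and GFAP averaged 629 CPM in manganese IP, 214 CPM in manganese input, 1668 CPM in control IP and 1734 CPM in control input. AQP4 was at 0 in all libraries and ALDH1L1 averaged at most 0.529 CPM in a group. Of 7 microglia and macrophage markers, 4 had a count in any library, and the summed level was 39.7 to 43.1 CPM in manganese IP, 40.1 to 43.8 CPM in manganese input, 2.19 to 3.80 CPM in control IP and 4.47 to 8.57 CPM in control input. Most of that sum was CD68, a lysosomal membrane protein, while AIF1, CX3CR1 and P2RY12 were at 0 throughout. The 10 astrocyte and glioma markers with a count went in different directions, with GFAP lower on average with manganese and NES at 4131 CPM in manganese IP and 1487 CPM in manganese input, against 600.5 CPM in control IP and 389 CPM in control input. Their summed level was 8823 to 9048 CPM in manganese IP and 6854 to 7663 CPM in manganese input, against 5073 to 7661 CPM in control IP and 5399 to 5912 CPM in control input. These markers and CD68 thus differed with manganese, and the part of other cell types or of cell state in the results below was not tested.

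Of the 37 members, 34 had enough counts to be tested. ATG4D, a protease of the ATG8 family, and NBR1, a cargo receptor, had no count in any library. WIPI1, a phosphoinositide-binding protein, had counts in manganese input 2 and control input 1 only. Another 5 were tested with a mean under 5 CPM, namely BECN1, VMP1, ATG7, MAP1LC3B and TFEB, and their fold changes are loosely measured. Whether their reads were assigned to other genes was not tested. Levels are given as CPM, counts scaled to library size with TMM factors. They compare libraries for 1 gene, and levels are set between genes only in TPM, which corrects for transcript length. On that scale GABARAPL2, an ATG8-family protein, was the most abundant member in manganese IP with a mean of 51.2 TPM, in control IP with 144 TPM and in control input with 67.05 TPM. The cargo receptor TAX1BP1 led in manganese input with 51.9 TPM, where GABARAPL2 had 34.8 TPM. Summed over all members the level was 1064 to 1143 CPM in manganese IP, 1049 to 1063 CPM in manganese input, 1093 to 1586 CPM in control IP and 1070 to 1113 CPM in control input. As a share of all counts outside PCGF6, with no TMM factor, the members took 0.148% to 0.163% in the 6 manganese libraries and 0.194% to 0.239% in the 6 control libraries. The scaling thus matters for manganese against control. These are bulk samples, in which fewer cells of a kind and less RNA per cell cannot be told apart.

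**Figure D1:**
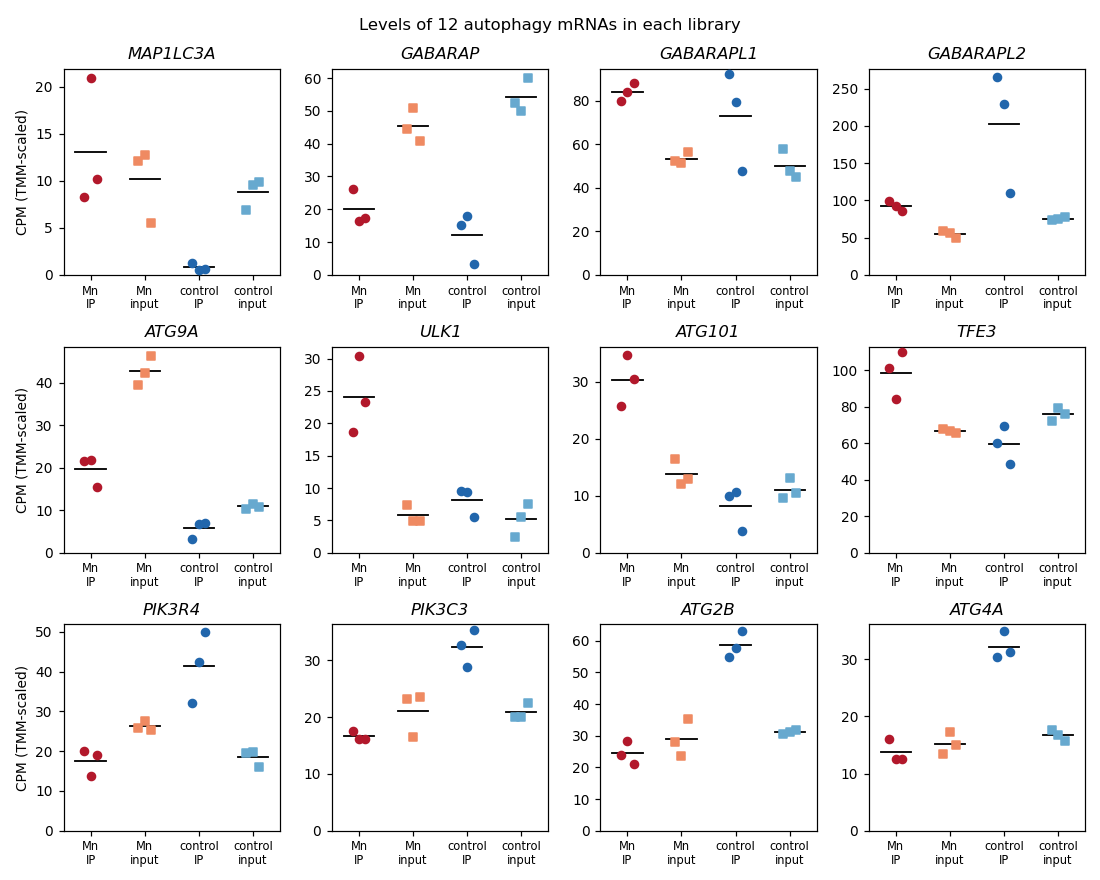
Level of 12 autophagy mRNAs in each library, in CPM with TMM factors on linear axes that start at 0. Each point is 1 library (circles IP, squares input, red tones manganese, blue tones control) and each bar the mean of 3. MAP1LC3A lies between 0.562 and 1.23 CPM in control IP and above 5 CPM in every other group, and ATG9A is highest in manganese input.

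Recovery with YTHDF2 was measured as the log2 ratio of IP to input within each treatment, called enrichment here. It was tested with edgeR's quasi-likelihood F test over 14804 genes, with Benjamini-Hochberg adjustment over all of them and a threshold of 0.05 on the adjusted p. In manganese cells 15 of the 34 tested members passed, 8 higher in the IP and 7 lower. Over all tested genes 32.4% passed, 14.8% higher and 17.6% lower. In control cells 16 members passed, 10 higher and 6 lower, against a background of 31.3%, with 17.2% higher and 14.2% lower. With total counts in place of TMM factors, 6 were higher and 8 lower in manganese cells, and 6 higher and 11 lower in control cells. Over all genes, total counts gave 11.8% higher and 20.6% lower in manganese cells, and 11.3% and 20.5% in control cells. Median enrichment over the members was -0.12 in manganese cells and -0.13 in control cells, with -0.03 and 0.04 over all genes. WIPI2, ATG10 and GABARAPL2 passed as higher in both treatments, and ATG14, ATG9A, ATG12, MAP1LC3B and GABARAP as lower in both. MAP1LC3B, at 0 counts in every IP library, could pass only as lower. A further 11 passed in neither. No member passed in opposite directions. How often all genes passed in both treatments, in neither or in opposite directions was not counted. MAP2K4, a JNK pathway kinase named here as a check, had an enrichment of 0.29 ± 0.18 in manganese cells and 1.77 ± 0.18 in control cells (log2 ± SE, adjusted p = 0.243 and 1.5e-05, edgeR).

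The change of enrichment, which is enrichment in manganese cells minus enrichment in control cells, was tested in the same fit. It passed for 7 members, 3 upward and 4 downward, where 17.1% of all genes passed, 6.94% upward and 10.2% downward. MAP1LC3A, ATG101 and TFE3 were recovered more with manganese, and PIK3C3, PIK3R4, ATG2B and ATG4A less. The 34 members passed at 20.6%, close to the background. Both enrichments and their difference share libraries, so they are not separate lines of evidence.

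**Figure D2:**
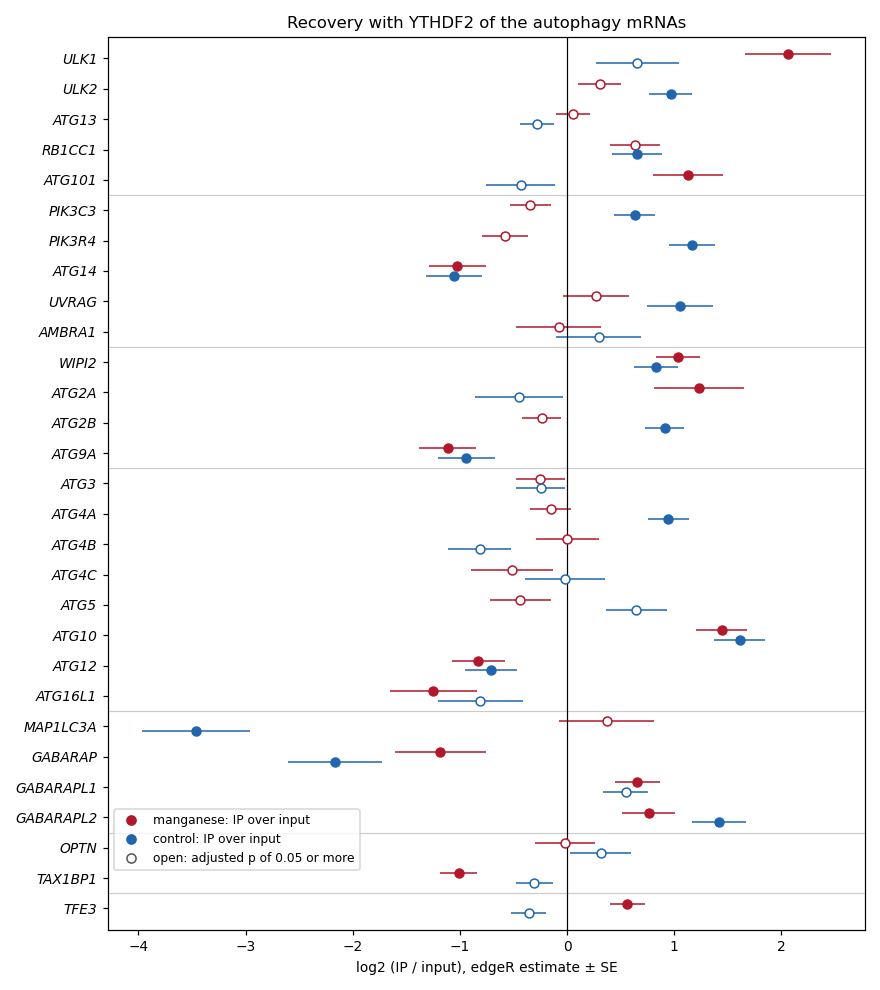
Enrichment with YTHDF2 of the 29 members with a mean of at least 5 CPM, in order of role, red for manganese and blue for control. Points are edgeR's log2 of IP over input, and bars an SE worked out from that value and the F statistic. Filled points have an adjusted p under 0.05. MAP1LC3A shows the widest gap, at 0.37 with manganese and -3.46 in control, and PIK3C3, PIK3R4, ATG2B and ATG4A lie on the right in control only.

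Manganese against control was also tested within each fraction. In the IP, 17 of 34 members passed, 7 higher and 10 lower with manganese, against a background of 42.9% over all genes, with 20.4% higher and 22.5% lower. The higher ones were ULK1, ATG101, ATG2A, ATG9A, ATG4B, MAP1LC3A and TFE3, and the lower ones ULK2, PIK3C3, PIK3R4, UVRAG, ATG2B, ATG4A, ATG4C, ATG5, GABARAPL2 and TAX1BP1. In the input, ATG9A was the only member to pass, where 15.0% of all genes did, 11.3% higher and 3.63% lower. The median difference in the input was -0.08 over the members and -0.04 over all genes. With total counts, 9 members passed in the input, 1 higher and 8 lower, beside 7.57% higher and 17.7% lower over all genes. With limma on log2(TPM + 1), run on genes with a mean of at least 1 TPM, 8 members passed, 1 higher and 7 lower. That fit called 1047 genes higher and 2545 lower. It did not hold all 34 members, and its shares of members and of genes were not counted. Under total counts the median in the input was -0.54 over the members and -0.49 over all genes. In the IP total counts gave 5 members higher and 15 lower, beside 16.4% higher and 29.3% lower over all genes. The medians there were -0.49 over the members and -0.37 over all genes.

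**Figure D3:**
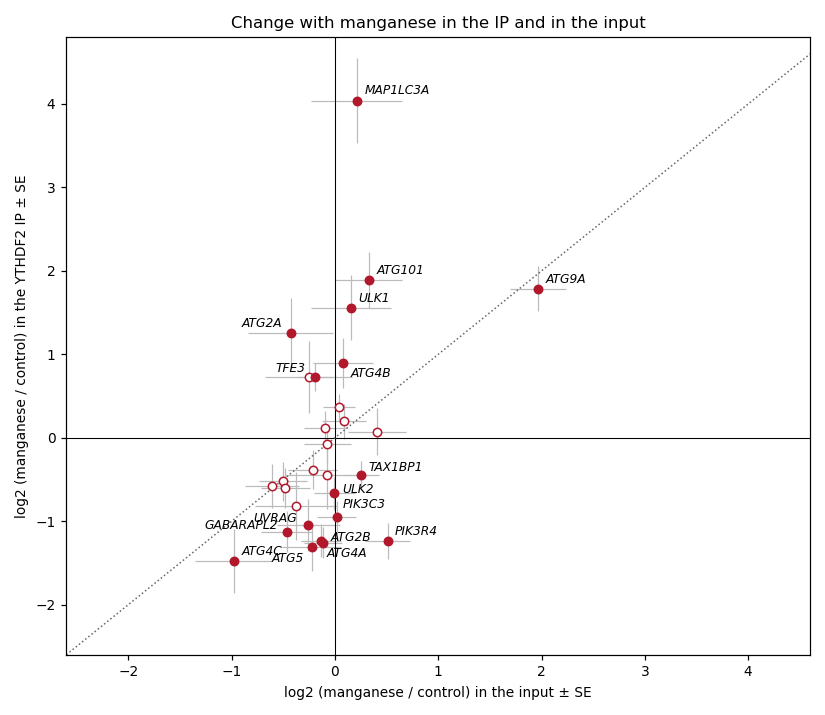
Difference between manganese and control for the 29 members with a mean of at least 5 CPM, as log2 ± SE, in the input (horizontal) and the IP (vertical). Filled and named points passed in the IP or the input, and the dotted line marks equal differences. Besides ATG9A, which lies near that line at 1.96 and 1.79, the passing members spread upward and downward at input values between -0.98 and 0.51.

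**Figure D4:**
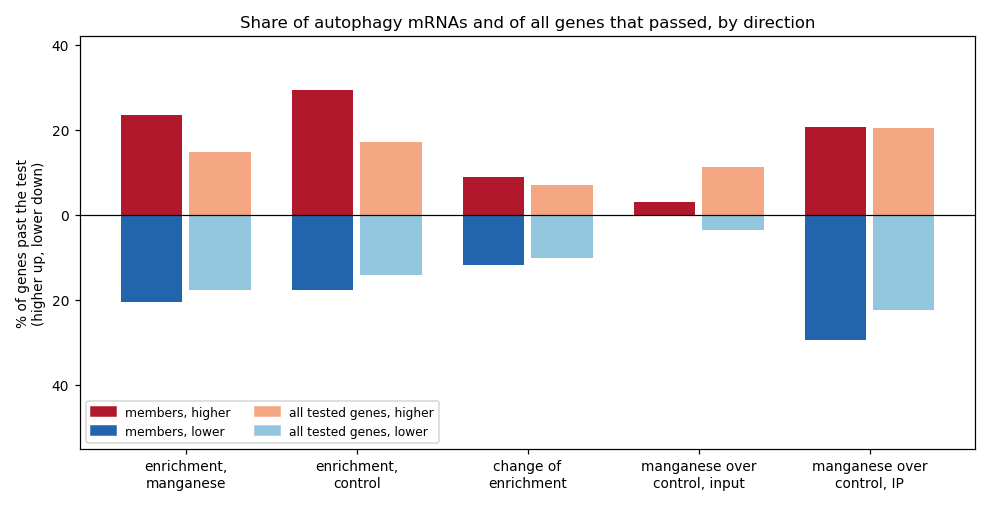
Percent of the 34 tested members and of all 14804 tested genes that passed at an adjusted p under 0.05 in each comparison, higher drawn upward and lower downward from 0. Members stand above the background most in control enrichment, where 47.1% passed against 31.3%, and below it in the input, where 2.94% passed against 15.0%.

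The ULK complex holds the kinases ULK1 and ULK2 with ATG13, RB1CC1 (the scaffold FIP200) and ATG101, which steadies ATG13. ULK1 measured 18.6, 30.5 and 23.2 CPM in manganese IP and 7.38, 4.98 and 4.98 CPM in manganese input, against 9.55, 9.38 and 5.58 CPM in control IP and 2.43, 5.56 and 7.53 CPM in control input. With manganese each IP library was above each input and above each control IP, while the control IP and control input libraries overlapped. Enrichment of ULK1 was 2.06 ± 0.40 in manganese cells (4.17-fold, adjusted p = 0.00158), the highest of any member, and 0.66 ± 0.39 in control cells (adjusted p = 0.231). The change of 1.40 ± 0.55 did not pass (adjusted p = 0.0983). In the IP, ULK1 was 2.95-fold higher with manganese (1.56 ± 0.39, adjusted p = 0.00585), and in the input the difference was 0.16 ± 0.39 (adjusted p = 0.882).

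ATG101 followed ULK1 in direction and passed in the change itself. It measured 25.7, 34.7 and 30.6 CPM in manganese IP and 16.4, 12.1 and 13.0 CPM in manganese input, against 9.88, 10.7 and 3.86 CPM in control IP and 9.58, 13.1 and 10.4 CPM in control input. All 3 manganese IP libraries stood above the other 9. Enrichment was 1.13 ± 0.33 in manganese cells (adjusted p = 0.0171) and -0.43 ± 0.33 in control cells, and the change was 1.56 ± 0.46 (adjusted p = 0.0333). That change missed the threshold without manganese IP 2, manganese input 2 or 3, or control input 2 or 3, with adjusted p of 0.0563 to 0.0902, and enrichment with manganese missed it without manganese input 2 (adjusted p = 0.0529). The level in the IP was 3.71-fold higher with manganese (1.89 ± 0.33, adjusted p = 0.000499).

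ULK2 went the other way from ULK1. It measured 18.4, 22.3 and 18.7 CPM in manganese IP and 12.7, 18.6 and 16.7 CPM in manganese input, against 34.3, 31.9 and 28.03 CPM in control IP and 15.1, 17.6 and 15.5 CPM in control input. The control IP libraries were above all others, and the other 3 groups overlapped or nearly so. Enrichment was 0.31 ± 0.20 in manganese cells (adjusted p = 0.276) and 0.97 ± 0.20 in control cells (adjusted p = 0.0023), and the level in the IP was lower with manganese (-0.67 ± 0.20, adjusted p = 0.016). With the trend of enrichment on transcript length removed, both calls were lost (adjusted p = 0.228 and 0.317), and the second was also lost with no filter on low counts (0.0603). The change of enrichment was -0.66 ± 0.28 for ULK2 (adjusted p = 0.127). RB1CC1 had an enrichment of 0.63 ± 0.23 with manganese (adjusted p = 0.0527) and 0.65 ± 0.23 in control (adjusted p = 0.0479). The call in control rested on control IP 1 at 294 CPM, and without that library it was 0.30 (adjusted p = 0.206). It also missed the threshold without manganese IP 1, any 1 manganese input, control IP 2 or any 1 control input, at adjusted p of 0.0523 to 0.15, and with total counts, the length trend removed or log2(TPM + 1) (0.126 to 0.484). ATG13, the subunit that mTORC1 phosphorylates, passed in no comparison, with values from -0.28 ± 0.16 to 0.37 ± 0.16.

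The class III phosphatidylinositol 3-kinase complexes are built on the lipid kinase PIK3C3 (VPS34) and its regulatory subunit PIK3R4 (VPS15), with BECN1, and with ATG14 or UVRAG deciding where the complex acts. Both core subunits were recovered with YTHDF2 in control cells and not above input with manganese. PIK3R4 measured 20.1, 13.7 and 19.0 CPM in manganese IP and 25.7, 27.6 and 25.4 CPM in manganese input, against 32.0, 42.3 and 50.05 CPM in control IP and 19.4, 19.9 and 15.97 CPM in control input. The IP libraries lay below the inputs with manganese and above them in control, without overlap in either. Enrichment was -0.58 ± 0.21 in manganese cells (adjusted p = 0.0548) and 1.17 ± 0.22 in control cells (2.25-fold, adjusted p = 0.000998). The change of -1.75 ± 0.30 passed (adjusted p = 0.00282), and in the IP the level with manganese was 0.424 of that in control (-1.24 ± 0.22, adjusted p = 0.000457). The change was lost on log2(TPM + 1) (-1.08, adjusted p = 0.107). There PIK3R4 averaged 8.38 TPM in manganese IP and 7.04 TPM in manganese input, so TPM and CPM order these groups differently.

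PIK3C3 measured 17.6, 16.2 and 16.2 CPM in manganese IP and 23.2, 16.6 and 23.6 CPM in manganese input, against 32.6, 28.9 and 35.4 CPM in control IP and 20, 20.1 and 22.5 CPM in control input. Control IP libraries were above all the rest. Enrichment was -0.34 ± 0.19 in manganese cells (adjusted p = 0.201) and 0.63 ± 0.19 in control cells (adjusted p = 0.0224), with a change of -0.97 ± 0.27 (adjusted p = 0.0265). By the length implied by counts and TPM, PIK3C3 is among the longest transcripts measured, longer than 98.8% of tested genes. With the length trend removed its enrichment in control was -0.17 (adjusted p = 0.561) and its change -0.36 (adjusted p = 0.417). The change also missed the threshold without any 1 manganese IP, manganese input 1 or 3, control IP 1 or any 1 control input (adjusted p = 0.0514 to 0.113). Enrichment in control missed it without manganese input 1, control IP 1, any 1 control input, or both control IP 3 and control input 1 (adjusted p = 0.051 to 0.0901). Both were lost with total counts, with no filter and on log2(TPM + 1) (adjusted p = 0.0779 to 0.328). The difference in the IP was firmer, at -0.95 ± 0.19 (adjusted p = 0.00132), and was lost only with the length trend removed among the 20 alternatives (-0.42, adjusted p = 0.0895).

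UVRAG measured 32.5, 22.9 and 10.3 CPM in manganese IP and 20.4, 18.3 and 15.8 CPM in manganese input, against 48.4, 41.02 and 46.2 CPM in control IP and 21.4, 21.5 and 22.3 CPM in control input. Its manganese IP libraries spread over a wide range and overlapped their inputs, while control IP stood apart on top. Enrichment was 0.27 ± 0.31 in manganese cells (adjusted p = 0.558) and 1.06 ± 0.31 in control cells (adjusted p = 0.018). In the IP it was lower with manganese (-1.04 ± 0.31, adjusted p = 0.0144). Enrichment in control was lost without any 1 control input (adjusted p = 0.0546 to 0.0615), with total counts (0.101), with the length trend removed (0.0749) and on log2(TPM + 1) (0.38). ATG14 was depleted from the IP in both treatments, with an enrichment of -1.02 ± 0.26 in manganese cells (adjusted p = 0.00941) and -1.05 ± 0.26 in control cells (adjusted p = 0.00762). Without manganese IP 2 or manganese input 1 the first of these had an adjusted p of 0.0588 and 0.0524. AMBRA1, a BECN1 partner, passed in no comparison, and BECN1 averaged 2.26 CPM in manganese IP, 4.27 CPM in manganese input, 0.892 CPM in control IP and 1.58 CPM in control input, too low to tell.

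Among proteins that supply lipid and membrane, ATG9A, the transmembrane scramblase whose vesicles seed the autophagosome, was the one member whose input level rose with manganese. It measured 21.6, 21.9 and 15.6 CPM in manganese IP and 39.4, 42.3 and 46.4 CPM in manganese input, against 3.29, 6.74 and 7.10 CPM in control IP and 10.4, 11.6 and 10.9 CPM in control input. No library of a group overlapped another group. Manganese raised it 3.90-fold in the input (1.96 ± 0.27, adjusted p = 0.000205) and 3.45-fold in the IP (1.79 ± 0.27, adjusted p = 0.000165). It was depleted from the IP, with an enrichment of -1.11 ± 0.26 in manganese cells (adjusted p = 0.0057) and -0.94 ± 0.27 in control cells (adjusted p = 0.0168), and the change of -0.18 ± 0.38 did not pass. The call in control was lost without control IP 1 (adjusted p = 0.0521), without control input 2 (adjusted p = 0.0546) and with the length trend removed (adjusted p = 0.476). The increases in input and IP passed in each of the 20 alternatives run for them, from 1.15 to 2.00 in the input.

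Because ATG9A alone rose in the input, the 250 bases before its transcription start are shown. They lie at chr2:219229637-219229886 on the minus strand of GRCh38.p14 (RefSeq), and capitals mark ATTGG, the reverse complement of the CCAAT box.
ATG9A: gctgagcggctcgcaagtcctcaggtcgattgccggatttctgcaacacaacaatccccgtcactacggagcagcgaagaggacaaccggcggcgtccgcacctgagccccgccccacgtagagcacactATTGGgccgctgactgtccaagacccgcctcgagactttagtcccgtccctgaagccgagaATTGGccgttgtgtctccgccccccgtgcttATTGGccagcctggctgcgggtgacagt
The box starts at -120, -59 and -28 from the start. Over the same 250-base windows, searched on both strands, CCAAT is found in 32.0% of 35116 promoter windows. It is found in 13 of the 33 members that had a window (39.4%), counted by gene symbol. The first share thus counts windows and the second genes. The ATG9A window holds no TGATGNAA, the composite site of ATF4, no CACGTG, the E-box of TFEB and TFE3, and no TGANTCA, the AP-1 site. These letters describe the window and were not measured as binding sites.

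ATG2A and ATG2B, the bridge-like lipid transfer proteins, moved in opposite directions. ATG2B measured 23.9, 28.3 and 21.2 CPM in manganese IP and 27.9, 23.5 and 35.1 CPM in manganese input, against 55.0, 57.6 and 63.0 CPM in control IP and 30.4, 31.2 and 31.8 CPM in control input. Control IP was well above the other groups, which lay close together. Its enrichment was -0.24 ± 0.18 in manganese cells (adjusted p = 0.368) and 0.91 ± 0.18 in control cells (adjusted p = 0.00197), and its change -1.15 ± 0.26 (adjusted p = 0.0104). In the IP it fell with manganese to 0.418 of the control level (-1.26 ± 0.19, adjusted p = 0.000126). The change was lost without manganese input 3 (adjusted p = 0.0505), with the length trend removed (-0.62, adjusted p = 0.116) and on log2(TPM + 1) (-0.31, adjusted p = 0.769), where enrichment in control was -0.15. Enrichment in control was 0.29 with the length trend removed (adjusted p = 0.268), and the difference in the IP was -1.06 on log2(TPM + 1) (adjusted p = 0.0654).

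ATG2A measured 16.4, 22.7 and 25.6 CPM in manganese IP and 11.3, 7.82 and 8.36 CPM in manganese input, against 3.59, 7.48 and 16.1 CPM in control IP and 11.01, 13.1 and 12.9 CPM in control input. Manganese IP was above the other groups, and control IP ranged widely on either side of its inputs. Enrichment was 1.23 ± 0.42 in manganese cells (adjusted p = 0.0374) and -0.45 ± 0.41 in control cells, with a change of 1.68 ± 0.59 (adjusted p = 0.0666). The level in the IP was higher with manganese (1.25 ± 0.42, adjusted p = 0.0274). Each of its 2 calls was lost in 9 alternatives, among them without manganese IP 2 (adjusted p = 0.102 and 0.0966), manganese IP 3 (0.123 and 0.12) or any 1 manganese input (0.0552 to 0.138). The first was also lost without control input 2 or 3 (adjusted p = 0.0541 and 0.0536), the second without control IP 1 or 2 (0.102 and 0.0869), and both with total counts and on log2(TPM + 1) (0.0807 to 0.281). WIPI2, which reads phosphatidylinositol 3-phosphate and recruits ATG16L1, was enriched by 1.04 ± 0.21 in manganese cells (adjusted p = 0.00181) and 0.83 ± 0.20 in control cells (adjusted p = 0.00692). On log2(TPM + 1) these were -0.25 and 0.02, neither past the threshold, and with total counts the second was 0.53 (adjusted p = 0.112). VMP1, a scramblase of the endoplasmic reticulum, averaged at most 3.49 CPM in a group and passed nowhere.

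The conjugation enzymes attach ATG12 to ATG5 and the ATG8 proteins to lipid. ATG10, the E2-like enzyme for ATG12, was the member recovered best in control. It measured 27.3, 35.1 and 35.5 CPM in manganese IP and 11.9, 14.2 and 9.81 CPM in manganese input, against 54.4, 43.6 and 29.5 CPM in control IP and 13.6, 13.9 and 14.2 CPM in control input. IP libraries were above the inputs in both treatments with no overlap. Enrichment was 1.44 ± 0.24 in manganese cells (2.72-fold, adjusted p = 0.000509) and 1.61 ± 0.24 in control cells (3.06-fold, adjusted p = 0.0002), with a change of -0.17 ± 0.33. Its target ATG12 was on the other side, at -0.83 ± 0.24 in manganese cells (adjusted p = 0.0191) and -0.71 ± 0.24 in control cells (adjusted p = 0.0394). The ATG12 call in manganese cells was lost without manganese IP 1 or 3 or manganese input 1 or 2 (adjusted p = 0.0512 to 0.0684). In control its call was lost without IP 2 or 3 or input 1 or 3 (adjusted p = 0.0512 to 0.154), and without both control IP 3 and control input 1 (0.238).

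ATG16L1, which carries the ATG12-ATG5 conjugate to the membrane, measured 5.23, 3.11 and 2.98 CPM in manganese IP and 9.78, 9.46 and 7.73 CPM in manganese input, against 3.46, 6.14 and 10.4 CPM in control IP and 14.98, 10.3 and 9.81 CPM in control input. The manganese IP libraries lay below their inputs, and the control groups overlapped. Enrichment was -1.25 ± 0.41 in manganese cells (adjusted p = 0.0311) and -0.81 ± 0.40 in control cells (adjusted p = 0.149). At this depth the call was lost without manganese IP 2 or 3 or any 1 manganese input, with the length trend removed or on log2(TPM + 1) (adjusted p = 0.0645 to 0.125). ATG5 showed no difference past the threshold in either enrichment. In the IP it measured 47.9, 36.02 and 29.7 CPM with manganese, against 129, 104 and 48.8 CPM in control, and 49.9 to 56.1 CPM in manganese input and 57.2 to 63.9 CPM in control input. The IP libraries did not overlap, although control IP 3 was close to manganese IP 1, and ATG5 was lower in the IP with manganese (-1.31 ± 0.29, adjusted p = 0.00245). ATG3 and ATG7, the E2-like and E1-like enzymes, passed in no comparison.

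The ATG4 proteases process the ATG8 proteins and remove them from lipid. ATG4A measured 16.02, 12.5 and 12.6 CPM in manganese IP and 13.4, 17.3 and 14.98 CPM in manganese input, against 30.4, 35.0 and 31.3 CPM in control IP and 17.6, 16.8 and 15.8 CPM in control input. Control IP was the highest group and overlapped no other. Enrichment was -0.15 ± 0.19 in manganese cells (adjusted p = 0.603) and 0.95 ± 0.19 in control cells (adjusted p = 0.00202), and the change was -1.10 ± 0.27 (adjusted p = 0.0155). In the IP it was lower with manganese (-1.23 ± 0.19, adjusted p = 0.000208). The change missed the threshold without manganese input 2 (adjusted p = 0.0675) or control input 3 (0.0521) and with no filter on low counts (0.0509).

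ATG4C and ATG4B showed opposite differences in the IP. ATG4C measured 4.37, 6.66 and 3.70 CPM in manganese IP and 7.66, 5.53 and 7.83 CPM in manganese input, against 18.9, 13.0 and 9.13 CPM in control IP and 20.7, 9.70 and 11.1 CPM in control input. The manganese libraries were below the control ones in both fractions. The difference was -1.48 ± 0.38 in the IP (adjusted p = 0.00691) and -0.98 ± 0.38 in the input (adjusted p = 0.111). ATG4B measured 16.7, 10.7 and 11.1 CPM in manganese IP and 13.9, 13.0 and 11.6 CPM in manganese input, against 4.73, 9.16 and 6.84 CPM in control IP and 10.2, 12.02 and 14.2 CPM in control input. The manganese IP libraries were above the control IP ones by a small margin. ATG4B was higher in the IP with manganese (0.89 ± 0.30, adjusted p = 0.0265), a call lost without manganese IP 1 (0.64, adjusted p = 0.145), control IP 1 (0.65, adjusted p = 0.113) or manganese input 1 or 2 (adjusted p = 0.0514 and 0.0519). It was 0.60 with total counts, 0.56 with the length trend removed and 0.03 on log2(TPM + 1) (adjusted p = 0.15, 0.104 and 0.922).

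The ATG8 family, whose lipid-bound forms are read as a measure of autophagosomes, gave the largest differences and both directions. MAP1LC3A measured 8.23, 20.9 and 10.2 CPM in manganese IP and 12.1, 12.8 and 5.56 CPM in manganese input, against 1.23, 0.562 and 0.574 CPM in control IP and 6.86, 9.51 and 9.91 CPM in control input. It was almost missing from control IP, with 11 to 29 counts per library, and the manganese IP and input libraries overlapped. Enrichment was 0.37 ± 0.44 in manganese cells (adjusted p = 0.576) and -3.46 ± 0.50 in control cells (adjusted p = 0.000172). The change was 3.83 ± 0.66 (14.2-fold, adjusted p = 0.00275), and in the IP the level was 16.5-fold higher with manganese (4.04 ± 0.51, adjusted p = 3.79e-05), while the input differed by 0.21 ± 0.44 (adjusted p = 0.852). This was the single member whose change passed in every one of the 21 alternatives run, from 2.82 to 4.33.

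GABARAP was depleted too. It measured 26.3, 16.4 and 17.4 CPM in manganese IP and 44.4, 51.0 and 40.8 CPM in manganese input, against 15.1, 17.8 and 3.18 CPM in control IP and 52.4, 50.0 and 60.1 CPM in control input. IP libraries were below the inputs in both treatments, and control IP 3 was the lowest of all. Enrichment was -1.18 ± 0.43 in manganese cells (adjusted p = 0.049) and -2.17 ± 0.44 in control cells (adjusted p = 0.00198), and the change of 0.99 ± 0.60 did not pass. The first of these calls was at the threshold and was lost in 11 alternatives, among them without manganese IP 2 or 3, any 1 manganese input or any 1 control input (adjusted p = 0.0639 to 0.144).

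MAP1LC3B, the LC3 protein most often used as an autophagy marker, had no count in any of the 6 IP libraries. Its inputs measured 0.799, 0.686 and 0.338 CPM with manganese and 1.47, 0.220 and 0.344 CPM in control, or 39 and 53 counts in all. Against a floor of 3 counts over each group of IP libraries, the pooled input level was 13.7-fold higher in manganese cells and 13.3-fold higher in control cells. No error of the inputs is in these folds, and they rest on few counts. The gene passed the count filter through its inputs alone, so IP against input could only come out as lower or not pass. The edgeR calls as lower (adjusted p = 0.0249 and 0.0236) are thus no separate support. The first call was lost without any 1 manganese IP or without manganese input 1 or 2 (adjusted p = 0.0559 to 0.0706). The second was lost without control IP 1 or 2, control input 1, or manganese input 1 or 2 (adjusted p = 0.0501 to 0.0722), and without both control IP 3 and control input 1 (0.0956). Its near-identical copy MAP1LC3B2 had 6 counts over the 12 libraries, and whether reads of MAP1LC3B were assigned elsewhere was not tested.

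GABARAPL2 and GABARAPL1 were on the enriched side. GABARAPL2 measured 99.1, 92.6 and 86.4 CPM in manganese IP and 58.5, 55.6 and 50.0 CPM in manganese input, against 266, 229.8 and 110.3 CPM in control IP and 73.5, 75.1 and 78.2 CPM in control input. IP was above input in both treatments with no overlap, and the control IP libraries spread widely. Enrichment was 0.76 ± 0.25 in manganese cells (adjusted p = 0.0308) and 1.42 ± 0.25 in control cells (2.67-fold, adjusted p = 0.000711), the change -0.66 ± 0.35 (adjusted p = 0.216), and the level in the IP was lower with manganese (-1.12 ± 0.25, adjusted p = 0.00244). Without manganese input 3 the first of these was 0.72 (adjusted p = 0.0677). GABARAPL1 was enriched in manganese cells by 0.66 ± 0.21 (adjusted p = 0.03) and in control cells by 0.55 ± 0.21, which did not pass (adjusted p = 0.0666). On log2(TPM + 1) enrichment in manganese cells missed the threshold for both, GABARAPL2 at 0.54 and GABARAPL1 at 0.43 (adjusted p = 0.0658 and 0.054). GABARAPL3, a near-identical copy of GABARAPL1, had 60 counts over the 12 libraries.

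Of the cargo receptors, TAX1BP1, which brings ubiquitin-tagged cargo to LC3, measured 95.9, 102 and 84.7 CPM in manganese IP and 179, 195 and 195 CPM in manganese input, against 149.9, 136 and 101 CPM in control IP and 182, 151 and 144 CPM in control input. The manganese IP libraries were far below their inputs, and the control groups overlapped. Enrichment was -1.01 ± 0.17 in manganese cells (0.496 of input, adjusted p = 0.000629) and -0.30 ± 0.17 in control cells (adjusted p = 0.203). The change of -0.71 ± 0.24 did not pass (adjusted p = 0.0614). The lower level in the IP with manganese (-0.45 ± 0.17, adjusted p = 0.0473) rested on overlapping groups and was lost in 9 alternatives, 7 of them leaving out 1 library (manganese IP 1 or 3, control IP 1 or 2, or a control input), with adjusted p of 0.0504 to 0.117. OPTN, another ubiquitin-binding receptor, passed in no comparison.

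TFE3 measured 101, 84.1 and 110 CPM in manganese IP and 67.8, 66.6 and 65.5 CPM in manganese input, against 60.1, 69.4 and 48.8 CPM in control IP and 72.4, 79.4 and 76.3 CPM in control input. IP lay above input with manganese and below it in control, with no overlap in either. Enrichment was 0.56 ± 0.16 in manganese cells (adjusted p = 0.018) and -0.36 ± 0.16 in control cells (adjusted p = 0.12), and the change of 0.92 ± 0.23 passed (adjusted p = 0.0167). In the IP it was higher with manganese (0.73 ± 0.16, adjusted p = 0.00284), a call lost on log2(TPM + 1) (0.29, adjusted p = 0.136). Without control input 2 the change had an adjusted p of 0.0518, and enrichment with manganese was lost with total counts, with no filter and on log2(TPM + 1) (adjusted p = 0.0531 to 0.128). TFEB averaged at most 1.09 CPM in a group and passed nowhere. Since TFEB and TFE3 bind the E-box CACGTG, the member promoters were searched for it over 250 bases before the start, on both strands. It occurs in 6.34% of 35116 promoter windows and in 2 of 33 members, counted by gene symbol. These 2 are shown as 30 bases on the minus strand of GRCh38.p14 with the E-box in capitals, from chr3:112561963-112561992 and chr14:55411834-55411863.
ATG3: cctttctcacgtCACGTGccgggagagtct
ATG14: aaaacaaaatccCACGTGactggctctcct
In the input ATG3 differed with manganese by -0.07 ± 0.23 (adjusted p = 0.908) and ATG14 by -0.61 ± 0.26 (adjusted p = 0.159).

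Enrichment went with transcript length over all genes, more so in control than with manganese. Spearman's rho between the log2 enrichment and the length implied by counts and TPM was 0.13 in manganese cells and 0.35 in control cells over 14804 genes, and 0.08 and 0.31 over the 34 members. By this implied length, the members that passed as enriched in control alone included long transcripts and shorter ones. PIK3C3, ULK2 and ATG2B exceeded 98.8%, 94.1% and 94.3% of tested genes, and PIK3R4 and ATG4A 39.7% and 37.9%. For PIK3R4 that length, and so the removal of its trend, is uncertain, since its CPM and TPM ordered the groups differently. MAP1LC3A was among the short ones at 15.99%. With the length trend removed, PIK3R4, ATG4A and MAP1LC3A kept their change of enrichment past the threshold, and PIK3C3 and ATG2B did not.

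The genes around the core machinery were taken from lists that overlap none of the 37 members. Of 21 tested further core and receptor genes, 5 rose and none fell in the input with manganese (23.8% higher, beside 11.3% higher and 3.63% lower over all genes), but with total counts 2 rose and 2 fell (9.52% each, beside 7.57% higher and 17.7% lower over all genes). SQSTM1 (p62), the receptor that links ubiquitin-tagged cargo to LC3 and is itself consumed by autophagy, measured 1201, 1199 and 1165 CPM in manganese IP and 730, 715 and 602 CPM in manganese input, against 390.1, 487 and 393 CPM in control IP and 357, 407 and 395 CPM in control input. Both manganese groups were above all control libraries. It was higher with manganese by 1.49 ± 0.15 in the IP (adjusted p = 5.98e-06) and 0.82 ± 0.15 in the input (adjusted p = 0.00156), the second lost under total counts and on log2(TPM + 1), with adjusted p of up to 0.122. BNIP3, a mitophagy receptor, and TMEM41B, a scramblase that acts with VMP1, rose in the input by 1.28 ± 0.19 and 1.45 ± 0.27 (adjusted p = 0.000335 and 0.00216) and passed in each of 20 alternatives. In the IP 7 genes of that list were higher with manganese and 6 lower (33.3% and 28.6%, beside 20.4% and 22.5% over all genes). In enrichment 5 were higher and 5 lower in manganese cells (23.8% each, beside 14.8% and 17.6% over all genes). In control cells 5 were higher and 4 lower (23.8% and 19.0%, beside 17.2% and 14.2%), among them FUNDC1, another mitophagy receptor, at 2.29 ± 0.27 in control (adjusted p = 3.98e-05).

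Of 14 tested genes for fusion with the lysosome, 1 rose in the input with manganese (7.14%, beside 11.3% of all genes), and with total counts none rose and 4 fell (28.6%, beside 17.7% of all genes). Enrichment passed for 3 higher and 3 lower in manganese cells (21.4% each, beside 14.8% and 17.6% over all genes) and for 2 higher and 1 lower in control cells (14.3% and 7.14%, beside 17.2% and 14.2%). With so few genes these shares are loosely measured. VPS18, a core subunit of the HOPS tethering complex, was enriched in both, by 2.44 ± 0.20 in manganese cells (adjusted p = 4.27e-06) and 1.60 ± 0.19 in control cells (adjusted p = 4.3e-05). VPS39, another HOPS subunit, had an enrichment of -2.12 ± 0.50 in manganese cells (adjusted p = 0.00581). These 2 subunits of 1 complex lay on opposite sides of 0 with manganese.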

How the data were processed

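The data are RNA sequencing of YTHDF2 immunoprecipitates and inputs from U251-MG cells with or without 100 µM manganese, 3 libraries per group. Transcripts were quantified by the authors using kallisto and hg19, per the submitters' processing notes, with no version given in the sources used here. The authors deposited estimated counts per Ensembl gene, rounded to whole numbers, and TPM for the same genes. They also deposited totals of fragments and the percent aligned, per the file headers. Gene names came from the deposited analysis table. A deposited transcript table was not used here.

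Counts were tested with edgeR 4.0.16 (quasi-likelihood F test, TMM factors, filterByExpr with a minimum count of 10) in 1 fit with a mean per group, in R 4.3.3, and adjusted over all 14804 tested genes. Members with a call in manganese against control or in the change of enrichment, and the 6 largest calls in each enrichment, have values per library. The rule for the members uses gene symbols and no measured value, but the members, lists and tests were chosen with earlier results of these data known. edgeR's test gives no SE, so each SE was taken as the absolute log2 value over the square root of F. Such an SE is rough at low counts. The fit was tested on simulated data first. Alternatives were other scalings, no filter, removal of the trend on transcript length (taken from counts and TPM), replicate blocks, leaving out each library, limma 3.58.1 on log2(TPM + 1) for genes with a mean of at least 1 TPM, and DESeq2 1.42.0. Sequences are from RefSeq (GRCh38.p14), with promoters matched by symbol for 33 of 37 members. No coordinates of the files' own build were used. Bounds from a floor of 3 counts cover counting error in the IP libraries only.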

Additional observations from a re-analysis of the deposited data

Results flagged for a closer look

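For 7 members the enrichment with YTHDF2 differed between manganese and control cells by the interaction term of the edgeR fit. The change was positive, meaning more recovery with manganese, for MAP1LC3A at 3.83, ATG101 at 1.56 and TFE3 at 0.918 on the log2 scale. It was negative for PIK3R4 at -1.75, ATG2B at -1.15, ATG4A at -1.10 and PIK3C3 at -0.97. MAP1LC3A, ATG101 and TFE3 are in 3 different steps of the pathway, and PIK3R4 and PIK3C3 are subunits of 1 complex. The PIK3C3 change was lost in 14 of 21 alternatives, and only the MAP1LC3A change passed in all of them. The 7 are 20.6% of the tested members, beside 17.1% of all tested genes.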

How the results depend on the processing

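Of 56 called member values, 23 passed in every alternative run for them (21 for the enrichments and their change, 20 for manganese against control, where a block on lysates could not be fitted). Over 1156 rechecks, 1000 held side and direction, 153 lost the call and 3 turned, and of 2324 rechecks of values that had not passed, 112 passed. How often the calls of all genes held was not counted, so these numbers do not set the members apart from other genes. Members called with a single library left out ranged from 9 to 19 for enrichment in manganese (9 without manganese input 1 or 2), 11 to 20 in control, 4 to 11 for the change (4 without manganese input 3 or control input 2 or 3, 11 without control IP 3), 1 to 3 in the input (3 without control IP 3, 2 without control IP 1) and 15 to 21 in the IP. Calls over all genes ranged from 3638 to 5964 for enrichment in manganese, 3504 to 5821 in control and 1455 to 3765 for the change. They ranged from 1500 to 3213 in the input and 5576 to 6605 in the IP. Without both control IP 3 and control input 1, the change was called for 12 members and 3998 genes and the input for 3 members and 2899 genes. DESeq2 called 11 members and 3454 genes for the change, and 2 members and 3013 genes in the input. In the input, total counts called 9 members and 3742 genes, and limma on log2(TPM + 1) 8 members and 3592 genes. The limma fit did not hold all the tested members.

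Of the calls over all genes, 45.6% were upward for enrichment in manganese, 54.8% in control, 40.6% for the change, 75.8% in the input, 47.6% in the IP. With total counts 35.6% were upward in control, 55.6% for the change, 29.96% in the input, 35.9% in the IP, while on log2(TPM + 1) 31.8% in manganese, 30.7% in control, 58.4% for the change, 29.2% in the input and 34.5% in the IP. On log2(TPM + 1) signs turned for ATG13 (-0.70 for enrichment in manganese, -0.69 in the input), WIPI2 (-0.25 for enrichment in manganese, -0.77 in the IP), ATG2B (-0.15) and OPTN (-0.89) for enrichment in control, and ATG4B (-0.67) for enrichment in manganese. With the length trend removed, PIK3C3 was at -0.17 for enrichment in control. The cause was not tested.

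Same-numbered libraries did not deviate together (r of -0.121 to 0.0657). With 3 libraries per group, this cannot show whether input and IP of 1 number came from 1 lysate. With the number as a replicate block, the members called were 13 for enrichment in manganese, 14 in control, 7 for the change, 1 in the input and 16 in the IP. Over all genes that block called 4465, 4293, 2155, 2037 and 5879, beside 4795, 4639, 2531, 2215 and 6350 in the main fit. With input and IP of 1 number as a block, the members called were 13, 15 and 6 for the enrichments and the change, and the genes 4475, 4334 and 2157. Under 1 or both blocks the threshold was missed by MAP1LC3B in both enrichments (adjusted p up to 0.133 with manganese and 0.145 in control), GABARAP (0.0734) and ATG16L1 (0.0563) for enrichment in manganese, RB1CC1 for enrichment in control (0.057), the PIK3C3 change (0.0539) and TAX1BP1 in the IP (0.0525). Depth limits the 5 tested members under 5 CPM.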

Other observations

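The mTORC1 and AMPK pathways control when autophagy starts. Of 27 tested genes on that list, 5 were higher and 3 lower in the input with manganese (18.5% and 11.1%, beside 11.3% and 3.63% of all genes), and with total counts 2 and 7 (7.41% and 25.9%, beside 7.57% and 17.7%). In the IP 8 were higher and 11 lower (29.6% and 40.7%, beside 20.4% and 22.5% of all genes), and with total counts 6 and 13 (22.2% and 48.1%, beside 16.4% and 29.3%). DDIT4 (REDD1), a stress-induced inhibitor of mTORC1, was higher with manganese by 2.38 ± 0.15 in the input and 2.68 ± 0.16 in the IP (log2 ± SE, edgeR adjusted p = 6.2e-07 and 1.35e-07). SESN2, a leucine-sensing sestrin that restrains mTORC1, was higher by 2.72 ± 0.38 in the input and 3.86 ± 0.40 in the IP (adjusted p = 0.000239 and 7.75e-06). Its relative SESN3 was lower, at -1.14 ± 0.13 in the input and -1.96 ± 0.14 in the IP (adjusted p = 5.52e-05 and 3.4e-07). The DDIT4, SESN2 and SESN3 values, in the input and in the IP, passed in each of the 20 alternatives run for them.

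In recovery with YTHDF2, 6 genes of that list were higher and 9 lower in manganese cells (22.2% and 33.3%, beside 14.8% and 17.6% of all genes). In control cells 6 were higher and 4 lower (22.2% and 14.8%), near the 17.2% and 14.2% of all genes. The change of enrichment passed for 3 upward and 7 downward (11.1% and 25.9%, beside 6.94% and 10.2%). The Ragulator scaffold, which holds mTORC1 at the lysosome, gave different values by subunit. LAMTOR2 had an enrichment of -3.11 ± 0.28 in control cells and a change of 2.03 ± 0.37 (adjusted p = 7.03e-06 and 0.0034), LAMTOR4 had a change of 2.79 ± 0.65 (adjusted p = 0.0115), and LAMTOR3 had an enrichment of 1.68 ± 0.21 in control cells (adjusted p = 5.19e-05).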
